A study of Mus musculus with 8 samples.

Results

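The genes described here encode the cornified envelope, the cross-linked protein shell of the outermost skin cells, together with the filaggrin-type proteins, the enzymes that build the shell and the proteins that hold and release its cells. They were chosen by name: each gene whose single array symbol starts with Sprr or Lce and a digit, and 21 further genes of the envelope, the corneodesmosome and the proteases around them. Of 18606 genes with a single symbol on either array type, 44 met this rule and were measured on at least 1 type, and 40 were measured on both. The Twist1 table held 43 of them among 18193 genes, and the Twist1/p53 table held 41 among 17084. Flg2 and Crnn, which the rule also names, are not analysed here.

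The samples were epithelial cells sorted from mouse skin tumours raised by DMBA, a carcinogen, and TPA, a tumour promoter. There were 8 arrays of total RNA in 4 groups of 2. In the first comparison, K14CreER:Twist1fl/fl mice were set against Twist1fl/fl controls, and in the second, K14CreER:Twist1fl/fl:p53fl/fl mice against Twist1fl/fl:p53fl/fl controls. All mice, controls included, carried the floxed alleles of their comparison and received 5 doses of 2 mg tamoxifen, so the groups differ in the Cre transgene as well as in the deletion. K14CreER is a tamoxifen-dependent recombinase driven by the keratin 14 promoter, which is active in basal epithelial cells. The cells were Epcam+/Lin-/DAPI-, that is, live cells with an epithelial surface protein and without leukocyte, endothelial or fibroblast surface markers. The mice were littermates of mixed strain background, and no age is given in the labels. The labels do not say whether each array is 1 mouse, so the p-values below measure only the spread between these samples. The question was what tumour epithelial cells express after loss of the helix-loop-helix transcription factor Twist1, and after loss of Twist1 and p53 together.

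Keratinocytes leaving the basal layer express involucrin, envoplakin and periplakin first, and these are cross-linked under the plasma membrane by transglutaminases. Loricrin, the small proline-rich (SPRR) proteins and the late cornified envelope (LCE) proteins are then added, while filaggrin bundles keratin filaments and is later cut into small molecules that hold water. SPRR proteins are also known as stress and wound genes of the skin, and many of the genes lie side by side in a cluster called the epidermal differentiation complex. Here 30 of the 44 genes were on mouse chromosome 3 in RefSeq's annotation of GRCm38.p6, and the others were on 9 other chromosomes. From the first to the last of the cluster, RefSeq lists 49 protein-coding genes, 29 of which are among these 44.

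The start regions of 3 cluster genes are printed because these genes and their relatives differed in the results. Lor passed the test after the Twist1/p53 deletion, Lce1b is an Lce1 gene of the LCE family and Sprr2d is an Sprr2 gene of the SPRR family. Each sequence runs 5′ to 3′ on the gene's own strand from 250 bases before to 50 bases after the RefSeq start (GRCm38.p6). Lor lies at chr3:92083093-92083392 on the minus strand, Lce1b at chr3:92656877-92657176 on the minus strand and Sprr2d at chr3:92338890-92339189 on the plus strand. Capitals mark TGANTCA, the site of AP-1 (Fos and Jun dimers, which TPA is known to activate), and TATAAA, the TATA box.
Lor: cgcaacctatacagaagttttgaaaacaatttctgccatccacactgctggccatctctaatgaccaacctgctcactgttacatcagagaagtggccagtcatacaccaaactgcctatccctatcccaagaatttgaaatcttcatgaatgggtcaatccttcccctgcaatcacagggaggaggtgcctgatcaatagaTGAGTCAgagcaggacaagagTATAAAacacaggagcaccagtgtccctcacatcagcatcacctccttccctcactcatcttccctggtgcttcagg
Lce1b: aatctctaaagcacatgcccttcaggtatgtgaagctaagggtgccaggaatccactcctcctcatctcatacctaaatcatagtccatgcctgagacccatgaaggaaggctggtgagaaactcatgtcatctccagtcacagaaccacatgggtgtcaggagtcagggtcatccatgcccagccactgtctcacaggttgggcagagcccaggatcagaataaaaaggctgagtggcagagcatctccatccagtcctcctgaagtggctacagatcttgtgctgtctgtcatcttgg
Sprr2d: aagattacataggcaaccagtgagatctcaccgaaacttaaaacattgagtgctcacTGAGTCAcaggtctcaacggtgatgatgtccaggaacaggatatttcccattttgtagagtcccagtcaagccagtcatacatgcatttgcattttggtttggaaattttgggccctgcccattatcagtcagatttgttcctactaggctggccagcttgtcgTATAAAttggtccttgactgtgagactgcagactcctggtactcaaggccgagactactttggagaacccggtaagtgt
The Lor and Sprr2d windows each held 1 TGANTCA and 1 TATAAA, and the Lce1b window held neither. The TGANTCA began 48 bases before the start in Lor (position -48) and at position -193 in Sprr2d, and the TATAAA began at -27 and -29.

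Promoter windows of this length were matched by symbol for 36 of the 44 genes, in 38 windows. TGANTCA, searched on both strands, was in 7 of 9 SPRR windows and 0 of 14 LCE windows, beside 7.81% of all 32851 promoters. TATAAA, searched on the gene's strand, was in 8 of 9 SPRR and 2 of 14 LCE windows, beside 8.32% of all promoters. The general E-box CANNTG, the kind of site that Twist-type factors bind, was in 9 of 9 SPRR and 13 of 14 LCE windows, beside 72.3% of all promoters. Its subset CATNTG was in 3 of 9 SPRR and 12 of 14 LCE windows, beside 39.4% of all. These genes are duplicates of one another, so the windows are not independent: the median identity between pairs was 63.8% within Sprr2, 64.4% within Lce1 and 55.0% within Lce3, and 47.6% between Sprr2 and LCE windows. A match describes letters in this window and is not a measured binding site.

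The values are log2 levels, given below for array 1 and then array 2 of each group, and every difference is deletion minus its own control within 1 table. Twist1 was at 5.20 and 7.18 without and 3.81 and 3.90 with the Twist1 deletion, and at 6.15 and 6.04 against 4.82 and 5.01 in the Twist1/p53 table, with no overlap in either. Epithelial markers were high, with Krt5 between 12.8 and 13.7 on the 8 arrays, and the leukocyte gene Ptprc was between 3.26 and 4.49 on its brighter probe set. Other leukocyte markers were higher. The mean of the 6 tested in the Twist1 table was 5.56 and 5.69 in control arrays against 5.73 and 5.55, and Cd68 there was between 6.03 and 6.97. The mean of the 7 tested in the Twist1/p53 table was 4.67 and 4.75 against 4.59 and 4.36. Fibroblast collagens were not low either: Col1a1 was at 10.10 and 10.33 and Col3a1 at 9.81 and 9.96 in the Twist1/p53 controls. The SD over genes of the difference between the arrays of a group was 0.33 and 0.19 for controls and 0.50 and 0.45 for deletions, in the Twist1 and the Twist1/p53 table. The X-linked gene Xist was high in all 4 controls and low in all 4 deletion arrays, and the Y-linked Eif2s3y was the reverse, so sex and deletion cannot be told apart in either comparison. In the Twist1 table the mean level of the spiked-in control RNAs was 7.14 and 7.88 in control arrays against 8.16 and 9.03 in the deletion arrays, and the Gapdh 3′ minus 5′ difference was 0.04 and 0.03 against 0.22 and 0.30. The part of these in the Twist1 results was not tested. These are bulk samples, so fewer cells of a type and less RNA per cell cannot be told apart.

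After the Twist1/p53 deletion, loricrin fell and most envelope, filaggrin-type and corneodesmosome genes had lower means, while the Lce3 genes and several Sprr2 genes did not share this direction. Among all 41 genes of the table, 31 had a lower mean (75.6%, beside 51.3% of all genes) and 24 were lower with no overlap between the groups (58.5%, beside 27.1% of all genes). Only Sprr2a1 and Lce1m were higher with no overlap. The median difference was -0.69, beside -0.01 over all genes of the table. limma called 244 of 14936 tested genes (1.63%; 84 of them, 0.562%, lower), and of the 38 genes tested here it called Lor, with Benjamini-Hochberg adjustment over all genes. At an unadjusted p under 0.05 there were 13, beside 20.4% of all tested genes.

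The 2 deletion arrays of this comparison differed. Array 1 was below array 2 in 39 of 41 genes, beside 43.9% of all genes. Against the control mean, the median was -1.21 in array 1 and -0.23 in array 2. Array 1 was below both controls in 36 genes (beside 40.1% of all genes) and array 2 in 24 (beside 45.2%), and array 2 was above both controls in 12 (beside 36.6%). The controls also differed in a common direction, since control 2 was above control 1 in 35 of 41 genes (beside 46.1%). The count of calls rested on single arrays, here and over the whole table. Without deletion array 1 it was 23, beside 3665 of 14901 genes, and without deletion array 2 it was 29, beside 3242 of 14948 genes. Without either control limma called no gene of the table at all.

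After the Twist1 deletion no gene of the set passed the test. limma called 5 of 15944 genes (0.0314%), and 0 of the 38 tested here, 8 of which had an unadjusted p under 0.05 (beside 8.73% of all tested genes). Of all 43 genes in the table, 26 had a lower mean (60.5%, beside 52% of all genes) and 15 were lower with no overlap (34.9%, beside 22.1%), while 5 were higher with no overlap (11.6%, beside 18.1%). The median difference was -0.24, beside -0.01 over all genes. Here deletion array 2 was the lower of the pair, below array 1 in 33 of 43 genes (beside 50.4% of all genes), and the medians against the control mean were 0.11 and -0.48. Without deletion array 1 the test called Cnfn, Sprr1a, Sprr1b and Tgm3 lower, among 47 called genes of 15931. Without deletion array 2 it called Lor and Spink5 higher, among 14 called genes of 15923.

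**Figure D1:**
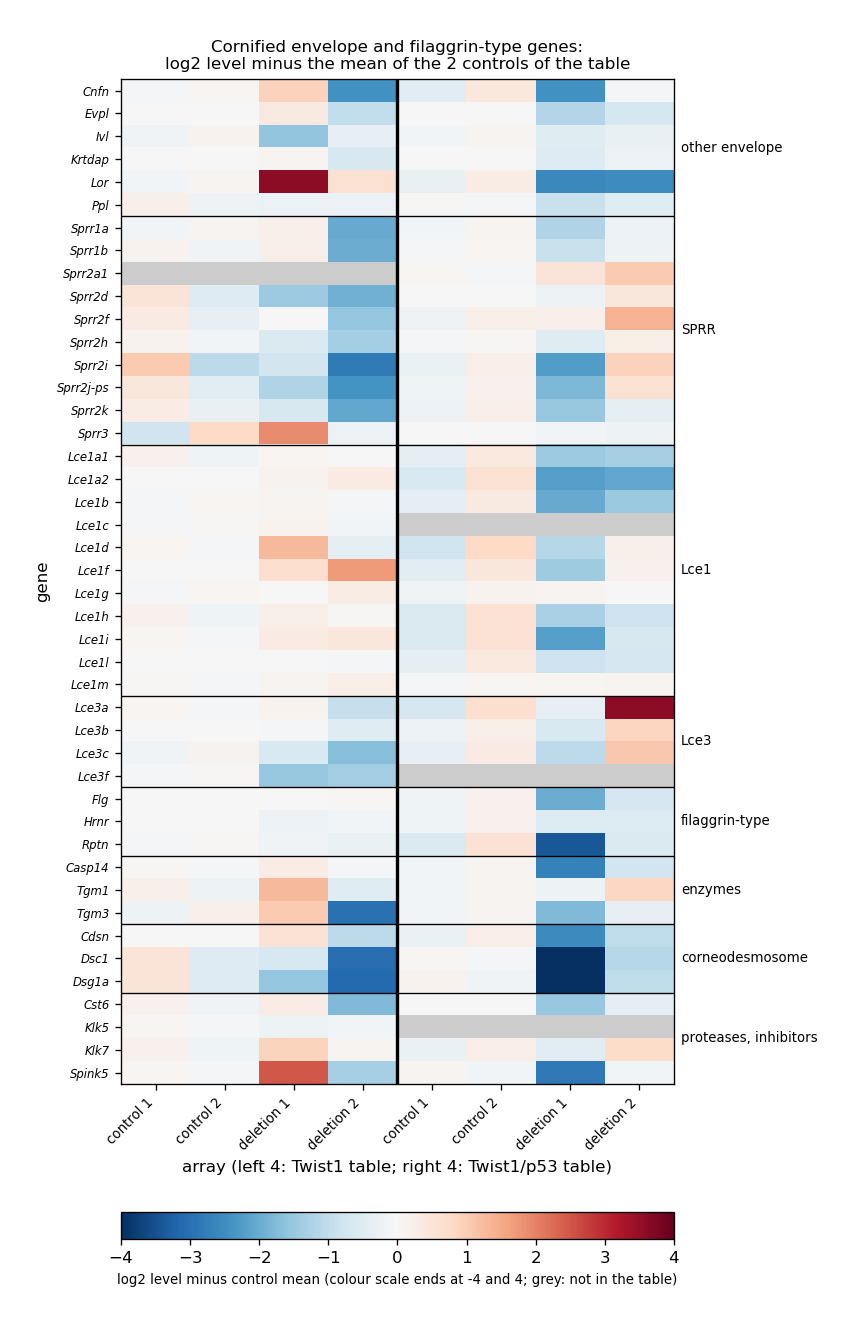
Log2 level minus the mean of the 2 controls of the table for each gene (rows, grouped by role) in each array (columns), with the Twist1 table at the left and the Twist1/p53 table at the right; grey marks a gene not in that table. In the Twist1/p53 table deletion array 1 has the lower values in 39 of 41 genes, and in the Twist1 table deletion array 2 has them in 33 of 43.

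Loricrin (Lor), the most abundant protein of the mature envelope, differed in opposite directions. In the Twist1/p53 table it was at 8.01 and 8.57 in control arrays against 5.70 and 5.78 in the deletion arrays. Both deletion arrays were far below both controls and close to each other. Lor fell by 2.55 (SE 0.23, limma adjusted p = 0.026), a 5.84-fold lower level on a linear scale, and the call was lost with the replicate number as a block (adjusted p = 0.082) and without control 1 (0.157) or control 2 (0.202), where no gene of the table was called. Its brightest probe set in the Twist1 table was at 5.41 and 5.64 in control arrays against 9.11 and 6.13 after the deletion. Both deletion arrays were above both controls, array 1 by far the more, and the difference of 2.10 (SE 0.94) had an adjusted p of 0.599. The Lor probe set that both tables share gave 4.43 and 4.56 against 8.84 and 5.19 in the Twist1 table, a difference of 2.52. Another Lor probe set there, near the filter level, gave 4.80 and 4.56 against 4.57 and 4.57, so the probe sets disagreed.

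Involucrin (Ivl), an early scaffold of the envelope, was at 8.78 and 9.03 in the Twist1/p53 controls and 8.42 and 8.61 in the deletion arrays. The groups did not overlap, and the difference was -0.39 (SE 0.15, adjusted p = 0.259). The other Ivl probe set was at 8.36 and 8.50 against 7.97 and 8.44, where the groups overlapped, a difference of -0.23. On the Twist1 arrays Ivl was at 8.25 and 8.52 against 6.81 and 8.07, again with no overlap, and the difference was -0.95 (SE 0.43, adjusted p = 0.60). Both Ivl probe sets there were lower. Cornifelin (Cnfn), an envelope component, showed a wide spread between deletion arrays. It was at 8.21 and 9.08 against 6.21 and 8.55 in the Twist1/p53 table (-1.26, SE 0.83, adjusted p = 0.463) and at 9.23 and 9.36 against 10.22 and 6.88 in the Twist1 table (-0.74, SE 1.05, adjusted p = 0.854). Only 1 deletion array was clearly low in each table. The plakins envoplakin (Evpl) and periplakin (Ppl), which anchor the envelope to keratin filaments and desmosomes, had no overlap after the Twist1/p53 deletion. Evpl was at 10.14 and 10.20 against 9.0 and 9.47 (-0.93, SE 0.18, adjusted p = 0.095), and Ppl at 8.84 and 8.73 against 7.89 and 8.31. Krtdap, a secreted protein of differentiating keratinocytes, was at 11.53 and 11.52 against 11.01 and 11.30 in that table, lower with no overlap. Its Twist1 arrays were at 13.19 and 13.20 against 13.31 and 12.54 and overlapped. All 6 genes of this group had lower means in the Twist1/p53 table (beside 51.3% of all genes), 5 of them with no overlap (beside 27.1%). After the Twist1 deletion 5 of 6 had lower means (beside 52%).

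The LCE proteins, small late components of the envelope, split by name. The split into Lce1 and Lce3 was made after the values had been seen and carries no test. In both tables the probe sets of Lce1a1, Lce1d, Lce1h, Lce1i, Lce3b and Lce3c have names ending in x_at, and that of Lce1m in s_at. Whether each of these signals comes from 1 gene alone was not tested, so the counts below may not be of separate measurements. After the Twist1/p53 deletion 8 of 10 Lce1 genes had lower means, with a median difference of -0.91 and a range from -2.14 to 0.09. Lce1b was at 5.60 and 6.32 in control arrays against 3.94 and 4.48 in the deletion arrays. Both deletion arrays were below both controls, with a difference of -1.75 (SE 0.31, adjusted p = 0.082). Lce1a1 gave -1.40 (SE 0.29, adjusted p = 0.0995) and Lce1a2 gave -2.14 (SE 0.41, adjusted p = 0.092). Lce1a2 was at 5.17 and 6.38 in the controls but at 3.58 and 3.69 in the deletion arrays, under the filter level of 3.74, so it was tested only because of its controls, as was Lce1l. Control 2 was above control 1 in all 13 LCE genes of this table. The 3 Lce3 genes had deletion array 2 above both controls and no lower mean. Lce3a was at 4.96 and 6.28 in control arrays against 5.30 and 9.20 after the deletion, so array 2 alone stood above the others (1.63, SE 1.36, adjusted p = 0.565). Without that array its difference was -0.32.

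After the Twist1 deletion the 2 LCE families again lay apart, the other way round. Of 11 Lce1 genes 10 had higher means, with a median of only 0.14 and a range from -0.03 to 1.18. All 4 Lce3 genes had lower means, with a median of -0.77 and a range from -1.46 to -0.27. Lce3f was at 7.58 and 7.66 in control arrays against 6.10 and 6.23 in the deletion arrays. Both pairs were tight and did not overlap, and the difference was -1.46 (SE 0.17, adjusted p = 0.213). Lce3f was not in the Twist1/p53 table as a single symbol. Lce1f was at 4.50 and 4.46 against 5.15 and 6.18, with both deletion arrays above both controls (1.18, SE 0.35, adjusted p = 0.529), and its dimmer second probe set gave 0.04. Of the other Lce1 genes, Lce1c, Lce1l and Lce1m were under the filter level of 4.11 in this table. The control means of Lce1a1, Lce1a2, Lce1b, Lce1d and Lce1g lay between 4.30 and 4.94, close to that level.

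The SPRR proteins are flexible cross-bridges of the envelope. After the Twist1 deletion all 6 Sprr2 genes with a single symbol had lower means, 4 with no overlap (beside 22.1% of all genes). The differences ran from -1.79 to -0.79 around a median of -1.52. In all 6, control 2 was below control 1 and deletion array 2 below deletion array 1. Probe sets for several Sprr2a copies are outside this count. Of them, the one counted for Sprr2a1 in the Twist1/p53 table was higher with no overlap here (0.50), as was another (0.63), and a further one overlapped. Sprr1a and Sprr1b overlapped between the groups, with deletion array 2 at -2.0 and -1.98 from the control mean and array 1 slightly above it. Sprr2d was at 12.71 and 11.69 in control arrays against 10.74 and 10.29 in the deletion arrays. Both deletion arrays were below both controls, although the controls were themselves apart, and the difference was -1.69 (SE 0.36, adjusted p = 0.436). Sprr3, which marks mucosal linings more than skin, was the exception among the 9 SPRR genes with a single symbol, at 4.82 and 6.42 against 7.52 and 5.39. The groups overlapped, and its difference of 0.84 (SE 0.85, adjusted p = 0.788) was -0.23 without deletion array 1.

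After the Twist1/p53 deletion the Sprr2 genes, now counting Sprr2a1, were mixed: 4 of 7 had lower means. Deletion array 2 was above both controls in 6 of 7 (beside 36.6% of all genes). Their differences ran from -0.94 to 0.80. Sprr2d was at 12.22 and 12.27 in control arrays against 12.03 and 12.68 in the deletion arrays, on both sides of the controls. Sprr2a1 was at 11.57 and 11.42 against 11.99 and 12.54, higher with no overlap (0.77, SE 0.19, adjusted p = 0.135). The same probe set was named for more than 1 Sprr2a copy in the other table's annotation, so its signal for Sprr2a1 alone is uncertain. Sprr1b was at 11.59 and 11.77 against 10.80 and 11.47, lower with no overlap (-0.54, SE 0.23, adjusted p = 0.287). Sprr3 was near background in this table, between 3.51 and 3.72 on all 4 arrays.

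**Figure D2:**
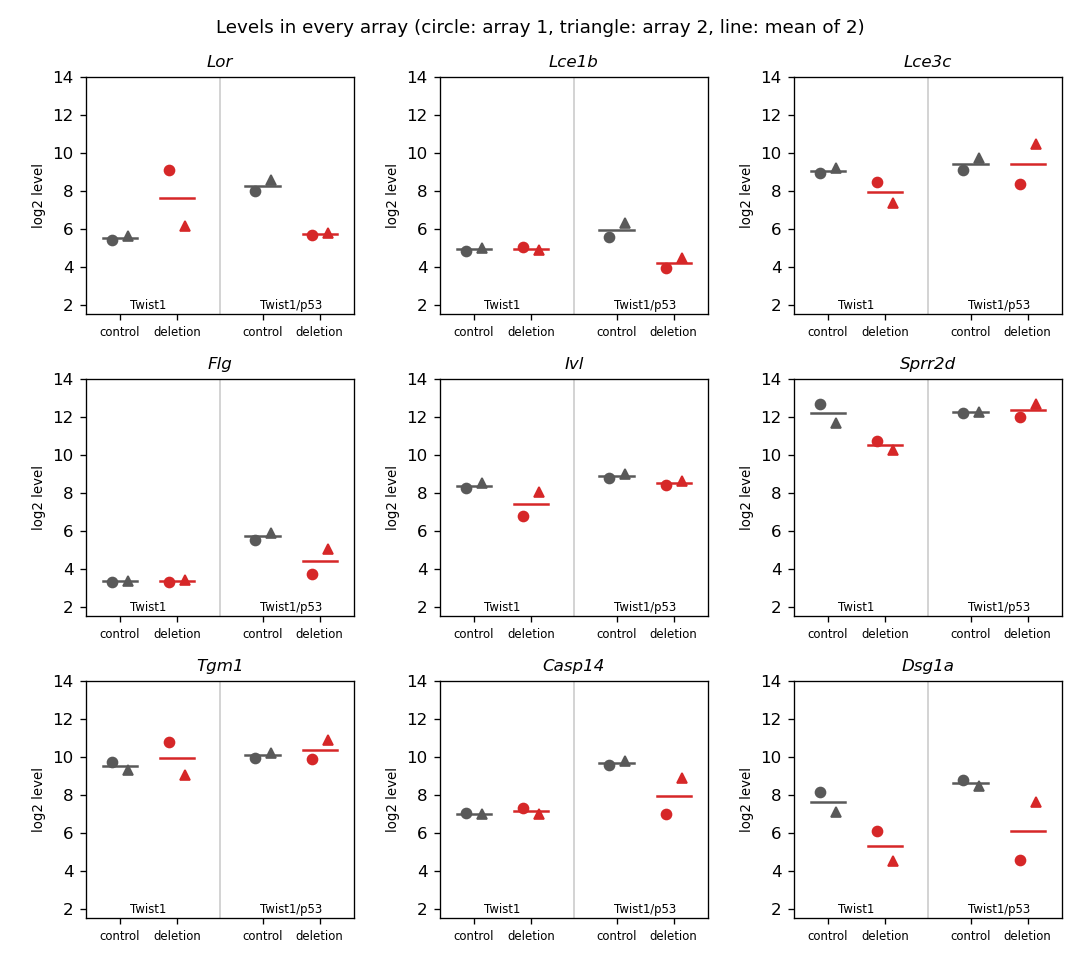
Log2 level (y axis) of 9 genes in every array, with controls in grey and deletion arrays in red, array 1 as a circle, array 2 as a triangle and the mean of both as a line; levels of different genes or tables are not comparable. Lor has both deletion arrays near 5.70 under controls of 8.01 and 8.57 in the Twist1/p53 table, and Dsg1a has both deletion arrays under both controls in each table.

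Filaggrin (Flg) and its relatives repetin (Rptn) and hornerin (Hrnr) carry an S100-type calcium-binding start fused to long repeats. In the Twist1/p53 table Flg was at 5.54 and 5.90 in control arrays against 3.73 and 5.05 in the deletion arrays. Both deletion arrays were below both controls, array 1 at the filter level, and the difference was -1.33 (SE 0.46, adjusted p = 0.215). In the Twist1 table Flg was between 3.32 and 3.41 on all 4 arrays, under the filter, so no difference could be measured there. Rptn was at 7.17 and 8.32 against 4.37 and 7.18 in the Twist1/p53 table. Its deletion array 1 was low and array 2 was level with control 1 (-1.98, SE 1.0, adjusted p = 0.359). The brightest Rptn probe set of the Twist1 table was at 4.41 and 4.48 against 4.32 and 4.17, close to the filter (-0.20, SE 0.13, adjusted p = 0.696). Hrnr was under the filter in both tables.

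Transglutaminases 1 and 3 (Tgm1, Tgm3) cross-link the envelope, and caspase 14 (Casp14) cuts filaggrin. Tgm1 was at 9.97 and 10.22 in the Twist1/p53 controls and 9.88 and 10.91 in the deletion arrays, which lay on both sides of the controls (0.30, SE 0.35, adjusted p = 0.688). The Twist1 table had it at 9.73 and 9.34 against 10.81 and 9.04, also on both sides (0.40, SE 0.58, adjusted p = 0.858). The sign of the Tgm1 difference was that of 1 deletion array in each table: it was -0.21 without deletion array 2 of the Twist1/p53 table and -0.49 without deletion array 1 of the Twist1 table. Casp14 was at 9.57 and 9.79 against 6.97 and 8.91 in the Twist1/p53 table, lower with no overlap (-1.74, SE 0.65, adjusted p = 0.238). The Casp14 probe sets of the Twist1 table gave 0.13 and -0.93. Tgm3 was at 9.95 and 10.39 against 11.23 and 7.18 in the Twist1 table, with 1 deletion array above and 1 far below the controls (-0.97, SE 1.27, adjusted p = 0.840; 1.06 without array 2). In the Twist1/p53 table it was at 10.97 and 11.20 against 9.32 and 10.76, lower with no overlap.

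The corneodesmosome proteins, which rivet the cornified cells together until they are shed, had lower means in both tables for all 3 genes. After the Twist1/p53 deletion all 3 were lower with no overlap (beside 27.1% of all genes). Dsg1a and Dsc1 were so after the Twist1 deletion (beside 22.1%), and none of the 3 genes passed the test in either table. Desmoglein 1 alpha (Dsg1a), a desmosomal cadherin of the upper layers, was at 8.78 and 8.49 in the Twist1/p53 controls and 4.56 and 7.63 in the deletion arrays (-2.54, SE 1.02, adjusted p = 0.265). In the Twist1 table it was at 8.15 and 7.12 against 6.08 and 4.54 (-2.33, SE 0.60, adjusted p = 0.503). The lowest array was deletion array 1 in the first and array 2 in the second. Desmocollin 1 (Dsc1), its partner cadherin, followed the same arrays: 8.73 and 8.60 against 4.57 and 7.53, and 8.99 and 7.95 against 7.83 and 5.41. Corneodesmosin (Cdsn) was at 8.05 and 8.59 against 5.76 and 7.31 in the Twist1/p53 table (-1.78, SE 0.56, adjusted p = 0.188). Its Twist1 controls were both at 6.37 and the deletion arrays at 6.96 and 5.31, on both sides of them (-0.24, SE 0.54, adjusted p = 0.919; 0.59 without array 2).

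The kallikreins Klk5 and Klk7 digest corneodesmosomes, and Spink5 and cystatin M/E (Cst6) encode inhibitors of such proteases. Klk7 was at 8.53 and 9.08 against 8.34 and 9.54 in the Twist1/p53 table, with the deletion arrays on both sides of the controls (0.14, SE 0.44, adjusted p = 0.902). The Twist1 table had it at 7.05 and 6.71 against 7.77 and 6.98 (0.49, SE 0.31, adjusted p = 0.684). Klk5, measured only in the Twist1 table, was at 5.00 and 4.82 against 4.70 and 4.79, with a difference of -0.17 (SE 0.15, adjusted p = 0.765). Cst6 was at 8.54 and 8.59 against 7.04 and 8.21 after the Twist1/p53 deletion, lower with no overlap (-0.94, SE 0.41, adjusted p = 0.291). Spink5 spread widely between deletion arrays. It was at 8.84 and 8.66 against 11.25 and 7.43 in the Twist1 table, and at 9.67 and 9.48 against 6.70 and 9.46 in the Twist1/p53 table, so the deletion arrays lay far above and below the controls in the first, and array 1 alone lay far below them in the second.

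The difference between the deletions (the Twist1/p53 difference minus the Twist1 difference) was tested for the 33 genes matched by probe set and above the filter in both tables. limma called 23 of 13622 genes (0.169%), and none of the 33. At an unadjusted p under 0.05 there were 6, beside 10.2% of all tested genes. All 7 Lce1 genes lay below 0 (beside 48.3% of all genes), with a median of -1.78, and did so with any 1 of the 8 arrays left out (medians from -2.14 without control 1 to -1.04 without deletion array 1 of the Twist1/p53 table). The Twist1 control means of Lce1a1, Lce1a2, Lce1b, Lce1d and Lce1f were between 4.40 and 4.94, near the filter level of 4.11, so a fall may not have shown there. Probe sets of Lce1a1, Lce1d, Lce1h and Lce1i end in x_at, so the 7 may not be separate measurements. All 6 Sprr2 genes lay above 0, with a median of 1.17, as did all 3 Lce3 genes, but this rested on 1 array. Without Twist1/p53 deletion array 2, Sprr2i, Sprr2j-ps, Sprr2k and Lce3b lay below 0, and the medians were 0.23 for Sprr2 and 0.08 for Lce3. Without Twist1 deletion array 2, Sprr2k lay below 0 and the medians were 0.52 and 0.62, and the Sprr2 median was 0.73 without and 1.79 with only Twist1 control 1. The Sprr2 median was 1.92 without Twist1 deletion array 1, and without Twist1/p53 deletion array 1 the medians were 2.15 and 2.22. Lce1a2, whose Twist1/p53 deletion arrays lay under the filter level, had the lowest adjusted p, at -2.36 (SE 0.48, adjusted p = 0.186). Lor gave -5.07 (SE 1.39, adjusted p = 0.297), and Sprr2d gave 1.8 (SE 0.49, adjusted p = 0.290). Lor was called without Twist1 deletion array 1 or array 2, among 31 and 142 called genes of the whole fit, and Lce1a2 without control 1 of the Twist1/p53 table, among 10. Of the 33 genes, 17 had lower means in both comparisons, 2 had higher means in both and 14 had opposite signs. Over these genes the Pearson correlation of the 2 differences was -0.09 and the Spearman correlation -0.08, a description over genes that are not independent.

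**Figure D3:**
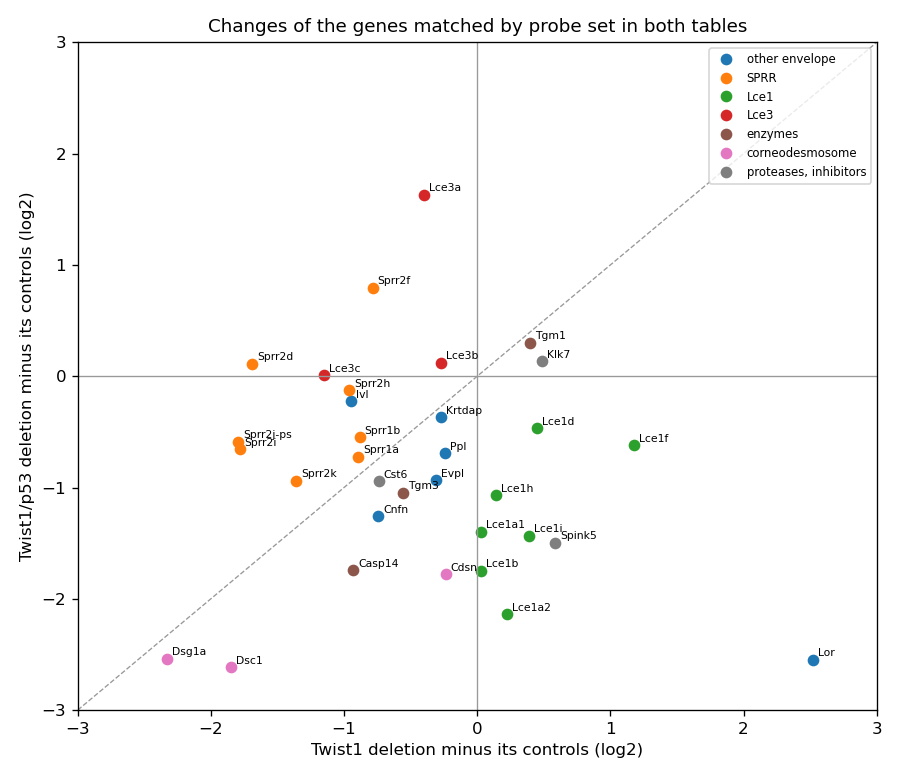
Difference from the controls on the log2 scale after the Twist1 deletion (x axis) and after the Twist1/p53 deletion (y axis) for the 33 genes matched by probe set, coloured by group; the dashed line marks equal differences. The 7 Lce1 genes lie below the line, the 6 Sprr2 and 3 Lce3 genes above it in these means of 2 arrays (4 of these 9 fall below it without Twist1/p53 deletion array 2), and Lor is at 2.52 and -2.55.

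Other genes of the barrier programme were taken from lists of pathway genes. Lipid barrier genes make and carry the fats between cornified cells, and after the Twist1/p53 deletion 13 of 16 had lower means (beside 52.4% of all tested genes), 11 with no overlap (beside 28.7%), and none was called. Their mean level was 8.69 and 8.69 in control arrays against 7.31 and 8.57 in the deletion arrays, so array 1 was again the lower. Of 16 other late differentiation genes 13 had lower means, and 1 was called: Mt4, a metallothionein of stratified epithelia, was at 10.85 and 10.91 against 7.08 and 6.40 and fell by 4.14 (SE 0.25, adjusted p = 0.012). Of 12 genes of filaggrin processing and breakdown 8 had lower means, and 1 was called: Ctsl, a lysosomal cathepsin, was at 10.53 and 10.65 against 11.64 and 11.47 and rose by 0.97 (SE 0.09, adjusted p = 0.029). Of 19 transcriptional regulators of the programme none was called and 10 had higher means. After the Twist1 deletion none of the 17, 16, 12 and 20 tested genes of these lists was called, and 11, 12, 2 and 12 of them had lower means (beside 53% of all tested genes), in the order lipid barrier, late differentiation, filaggrin processing, regulators.

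Markers of other cell types also differed between these arrays. Of 10 hair and inner root sheath markers, 9 had higher means after the Twist1/p53 deletion (beside 47.6% of all tested genes), 6 with no overlap (beside 24.4%), and none was called. Their mean level was 4.67 and 4.68 in control arrays against 6.93 and 5.50 in the deletion arrays, highest in array 1, where the envelope genes were lowest. Krt71, an inner root sheath keratin, was at 4.55 and 4.33 against 8.11 and 6.54 (2.88, SE 0.54, adjusted p = 0.087). The hair keratins did not share 1 direction. Krt31, of the hair cortex, was between 4.38 and 4.44 on all 4 arrays, and Krt33a overlapped (0.19). Krt35 was at 3.71 and 3.95 against 8.06 and 5.48, higher with no overlap (2.94). Sebocyte markers had higher means in 5 of 6, with mean levels of 8.06 and 7.96 against 8.35 and 8.66. Of 5 fibroblast markers 3 had lower and 2 higher means, and their mean level was 6.77 and 6.89 against 6.71 and 5.44. The only one called was Lum, which fell by 1.10 (SE 0.11, adjusted p = 0.032). Col1a1 was lower with no overlap (8.55 and 6.84 in the deletion arrays, -2.52), as was Col3a1 (9.26 and 6.44, -2.04). Dcn was higher with no overlap, at 5.04 and 4.92 against 7.81 and 5.85 (1.85). Col1a2 gave 0.002, but its probe set was between 4.21 and 4.31 on all 4 arrays, near the filter level of 3.74, so a fall may not have shown there. None of the 7 leukocyte, 5 endothelial, 4 melanocyte, 5 simple or mucosal keratin and 7 epithelial and basal markers tested was called. The part of these markers in the lower envelope levels was not tested.

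After the Twist1 deletion no marker of any of the 8 cell type lists was called. All 5 simple and mucosal keratins tested had higher means, Krt19 by only 0.001, where 53% of all tested genes had lower means. Their mean levels were 5.12 and 6.75 in control arrays against 7.81 and 7.02 in the deletion arrays. Krt8 and Krt18, of simple epithelia, were both higher with no overlap. Krt8 was at 5.32 and 5.89 against 7.35 and 8.03 (2.09, SE 0.32, adjusted p = 0.343) and Krt18 at 5.80 and 7.42 against 8.45 and 9.55 (2.39). Krt13, of mucosal linings, was at 4.61 and 8.40 against 9.92 and 6.05, so its controls were far apart and the groups overlapped. Krt4, also of mucosal linings, was at 5.44 and 7.26 against 8.75 and 6.84 and overlapped too (1.44). Sebocyte markers had a mean level of 8.27 and 8.28 against 8.46 and 9.63, highest in deletion array 2, where the Sprr2 genes and the corneodesmosome genes were lowest. Its members differed: Elovl3, Scd1, Scd3, Mgst1 and Plin2 were higher in deletion array 2 than in array 1, and Pparg and Fasn were lower. Pparg was at 4.43 and 4.49 against 7.82 and 6.89, higher with no overlap (2.89, SE 0.33, adjusted p = 0.213). Hair and inner root sheath markers were at 5.19 and 4.89 against 5.16 and 4.88. The part of these markers in the Twist1 results was not tested.

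**Figure D4:**
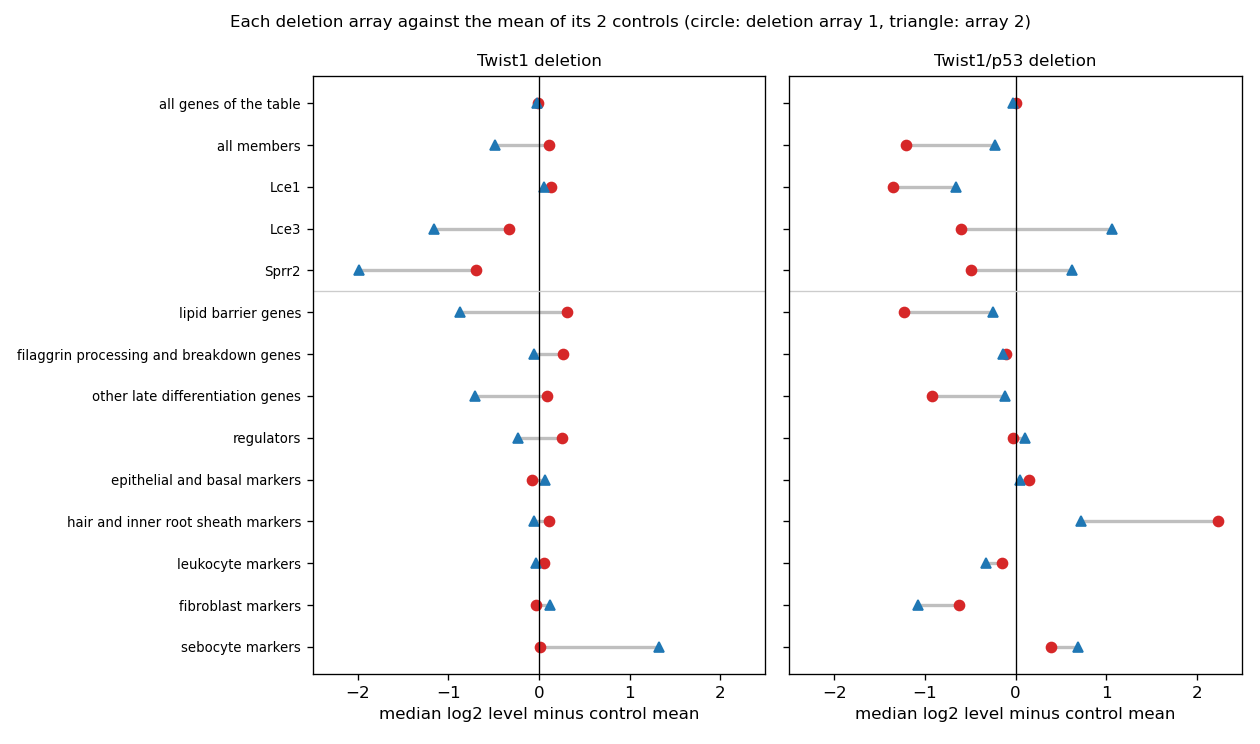
Median over each gene set of the log2 level minus the control mean (x axis) in deletion array 1 (circle) and deletion array 2 (triangle), for the Twist1 deletion at the left and the Twist1/p53 deletion at the right. All envelope genes are at -1.21 and -0.23 and hair and inner root sheath markers at 2.23 and 0.72 in the Twist1/p53 panel, while all genes of the table lie at about 0.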

How the data were processed

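Gene expression was measured on 8 Affymetrix mouse arrays, 4 in each of 2 tables of different array types. The authors deposited 1 value per probe set and array in log2 units, judging by a range of 2.76 to 14.45 with no negative value. Summarisation and normalization are not given in the sources used here. Both tables were treated separately, and levels are not comparable between them or between probe sets. Probe sets took their gene names from the platform annotation, and only those with a single symbol were used. The probe set with the highest mean stood for a gene, and genes under the 20th percentile of probe set means (4.11 and 3.74) were left out of the tests. Deletion and control arrays of a table were compared with limma 3.58.1 (lmFit and eBayes with an intensity trend, R 4.3.3), with Benjamini-Hochberg adjustment over all tested genes and calls under 0.05. The contrast of both deletions used all 8 arrays, with 1 probe set per gene by its mean rank in both tables. The fits were tested on simulated arrays. Genes with full statistics are those called, Lor, Flg, Ivl and Tgm1, and the highest and lowest moderated t of each group. Further genes (Evpl, Ppl, Lce1a1, Lce1a2, Dsc1, Spink5, Krt4, Krt13, Krt18, Krt33a, Krt35, the collagens, Dcn, Cnfn in the Twist1 table, Sprr2d and Tgm3 in the Twist1/p53 table) were added after their values were seen. The members and lists were chosen with earlier results of these data known. Promoters are RefSeq sequences, searched with Python 3.11.15. The alternatives were quantile normalization, median centring, other filters, the mean over or all probe sets, no trend, a robust fit, a replicate block, no X and Y genes, other thresholds and leaving out each array. Precision is limited by having 2 arrays per group. The p53 gene's level is not reported here.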

Additional observations from a re-analysis of the deposited data

Results flagged for a closer look

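The gene tests leave out probe sets with several symbols. Of these, only the ones for copies of Sprr2a were searched, for both deletion arrays above both controls, and 3 were found. Of all genes with a single symbol, 18.1% in the Twist1 table and 24.3% in the Twist1/p53 table were higher with no overlap. In the Twist1 table a probe set for Sprr2a1, Sprr2a2 and Sprr2a3 was at 11.71 and 11.85 in control arrays against 12.83 and 11.99 in deletion arrays, a difference of 0.63. A second one, for Sprr2a1 and Sprr2a2, was at 11.67 and 11.82 against 12.61 and 11.88, a difference of 0.50. Another probe set there for Sprr2a1 and Sprr2a2, at 5.63 and 3.77 against 6.42 and 3.98, overlapped between the groups. The 6 Sprr2 genes with a single symbol had lower means in the Twist1 table. In the Twist1/p53 table a probe set for Sprr2a1 and Sprr2a3 was at 11.42 and 11.21 against 11.79 and 12.33, a difference of 0.74, beside 0.77 for Sprr2a1. None of these differences was tested. With 2 arrays per group, single arrays were not tested for standing apart.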

How the results depend on the processing

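Outside leaving out arrays, 45 of 48 checks of the counts of called genes and of the medians stayed within the limits set for them. These limits were wide. A median had to move by less than the SD between the medians of the 2 deletion arrays, 0.12 and -0.79 in the Twist1 table. The Twist1 median thus stayed within its limit when it went from -0.27 to -0.74 with a filter at the 50th percentile. A count had to be equal or near in ratio, and for the Twist1 deletion and the difference it was 0 throughout, so staying says little. The exceptions concern the Twist1/p53 deletion: with the replicate number as a block, 0 genes of the set were called (Lor at -2.55, adjusted p = 0.082; 4 of all genes instead of 244), at an adjusted p under 0.01 it was 0 (22 of all genes), and under 0.1 it was 5 (Evpl, Lce1a1, Lce1a2, Lce1b and Lor, all lower; 810 of all genes). The block left 1 of all genes called in the Twist1 comparison and 6 in the difference. The correlation of same-numbered deviations over all tested genes was 0.03 and -0.02, so the numbers were not taken to pair the arrays. That value does not describe this set. In the Twist1/p53 table array 2 was above array 1 in 35 of its 41 genes for the controls and in 39 of 41 for the deletion arrays. Why the calls differ was not tested. Treating all probe sets as separate features called 366 features instead of 244 genes for the Twist1/p53 deletion, and separate fits called 70 genes instead of 23 in the difference. Leaving out each array in turn, which leaves 1 array assumed to vary like the others, gave 0 to 4 called genes of the set for the Twist1 deletion, 0 to 29 for the Twist1/p53 deletion and 0 to 1 for the difference, beside 0 to 47, 0 to 3665 and 10 to 142 of all genes. The medians ran from -0.79 to 0.12 and from -1.36 to -0.26. The deletion arrays lay on opposite sides of the control mean in 17 of 38 tested genes of the set in the Twist1 table and in 11 of 38 in the Twist1/p53 table. Among the genes named by rule, signs differed between leaving out deletion array 1 and leaving out deletion array 2, in that order, for Sprr3 (-0.23 and 1.90), Tgm1 (-0.49 and 1.28), Cdsn (-1.06 and 0.59) and Tgm3 (-2.99 and 1.06) in the Twist1 comparison, and for Klk7 (0.74 and -0.46), Lce3a (3.58 and -0.32) and Tgm1 (0.81 and -0.21) in the Twist1/p53 comparison. Klk7 was also -0.14 without Twist1/p53 control 1. The cause was not tested.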
